A study of Rattus rattus with 18 samples.

Results

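*Pomc*, *Cck* and *Gad2* are neuron genes of the hypothalamic arcuate nucleus (ARC), and their levels were examined in 18 RNA libraries of ARC tissue from female Wistar rats, 1 library per rat. They were chosen by name (ENSRNOG00000012686, ENSRNOG00000019321 and ENSRNOG00000018200), from genes that the study listed as altered by diet and running, and are 3 of the 32883 genes counted. All 3 passed the filter on low counts, which left 11892 genes to test in the diet and running experiment and 9625 in the miR-211 experiment. The study asked how a high-fat diet and voluntary running alter gene expression in the ARC, and what miR-211 does there. In the diet and running experiment, chow or a 60% high-fat diet was given from weaning on post-natal day 21. From post-natal day 90 the rats were singly housed for 4 weeks before tissue was taken. The 3 chow-sedentary (CS) libraries came from chow-fed rats without a wheel, the 3 high-fat sedentary (HFS) libraries from rats on the high-fat diet without a wheel, and the 4 high-fat running (HFR) libraries from rats on the high-fat diet with a running wheel. In the miR-211 experiment, chow-fed rats that had arrived on post-natal day 60 received a guide cannula in the third ventricle and were fasted overnight. They were infused at dark onset with MiRIDIAN hsa-miR-211-mimic (4 libraries, mimic) or MiRIDIAN hsa-miR-211-hairpin inhibitor (4 libraries, inhibitor), both with the transfection reagent BrainFectIN. Chow was then returned, and tissue was taken 6 h after infusion. Chow-fed runners and negative-control infusions were not analysed here, so mimic and inhibitor are compared with each other and not with untreated rats.

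*Pomc* encodes proopiomelanocortin, the precursor of alpha-MSH, a peptide that reduces feeding through melanocortin receptors and is made by a distinct population of ARC neurons. *Cck* encodes cholecystokinin, known as a gut satiety hormone and also made by neurons in many brain regions. *Gad2* encodes a glutamate decarboxylase that makes the inhibitory transmitter GABA, and it is expressed by inhibitory neurons of the ARC and of the regions around it.

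The tissue was punched with a 1 mm punch from both hemispheres, and RNA was sequenced by MARS-seq in bulk, a method that reads transcript ends. Such a punch holds neurons, glia and vessels, and in bulk tissue fewer cells of a type and less RNA per cell cannot be told apart. Libraries of the diet and running experiment held 4680736 to 7494207 counts on genes, and those of the miR-211 experiment held 1275263 to 6615927. Levels are normalised read counts (CPM), scaled to the counts on genes of each library with TMM factors. The lowest count behind a value of the 3 genes was 30, for *Cck* in mimic replicate 4, where the exact 95% Poisson interval ran from 15.9 to 33.7 CPM. Such intervals cover counting error only.

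Of 6 arcuate marker genes, *Pomc*, *Ghrh*, *Tbx3* and *Nkx2-1* had an identifier in the gene names used here. All 4 had counts in each of the 18 libraries. Their identifiers came from the study's own list of genes altered in this tissue. Counts for them could thus hardly be absent, and their presence does not check the label of the tissue. *Ghrh*, which encodes growth hormone-releasing hormone, lay between 12.4 CPM in mimic replicate 3 and 126 CPM in HFR replicate 3. *Sim1* and *Trh*, listed as markers of the paraventricular nucleus, also had counts, with *Trh* highest in mimic replicate 3 at 222 CPM. *Trh* is also in the list of the arcuate peptide system, so its counts do not by themselves show paraventricular tissue.

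In 8 of the 10 diet and running libraries the counts stood in a constant ratio to 1 per-animal column of the study's gene table. CS replicate 2 and HFS replicate 2 matched no column, so the values that rest on them are also given without them for the 3 genes and the lists. The study listed the 3 genes from animals that include those 8 libraries. A difference between CS, HFS and HFR in these genes is therefore not independent evidence of the direction that the study listed.

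In CS, *Pomc* was at 464, 875 and 171 CPM in replicates 1 to 3 (503 ± 354 CPM, SD, n = 3). In HFS, *Pomc* was at 1012, 857 and 1063 CPM (977 ± 107 CPM, SD, n = 3). In HFR, *Pomc* was at 182, 907, 1067 and 901 CPM in replicates 1 to 4 (764 ± 395 CPM, SD, n = 4). The HFS libraries lay close together at a high level. HFR replicates 2 and 4 lay within their range and HFR replicate 3, at 1067 CPM, just above it. CS replicates 1 and 3 and HFR replicate 1 lay far below. CS overlapped with HFS through CS replicate 2 alone, which at 875 CPM was above the 857 CPM of HFS replicate 2. The highest library exceeded the lowest 5.13-fold in CS, 5.85-fold in HFR and 1.24-fold in HFS.

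The difference in *Pomc* between HFS and CS was 0.96 on the log2 scale, with a standard error of 0.72 and a 95% confidence interval from -0.72 to 2.64. It was not called (edgeR quasi-likelihood test, Benjamini-Hochberg adjusted p = 0.994), although all 3 HFS libraries lay above the CS mean. Between HFR and HFS the log2 difference was -0.35 (95% confidence interval -1.90 to 1.19, adjusted p = 0.989 in edgeR). Between HFR and CS it was 0.60 (95% confidence interval -0.98 to 2.18, adjusted p = 0.995 in edgeR). The 3 comparisons share their libraries, so they are not independent of each other. Without CS replicate 2 and HFS replicate 2, *Pomc* averaged 317 CPM in the 2 remaining CS libraries and 1037 CPM in the 2 remaining HFS libraries. These groups no longer overlapped, as in 41.3% of all genes with 2 libraries against 2, and the log2 difference was 1.71 with a standard error of 0.87 (edgeR adjusted p = 0.680). In the same fit *Pomc* differed by -0.44 between HFR and HFS and by 1.28 between HFR and CS. The order of the *Pomc* means was HFS, HFR and CS, and neither pair of neighbours in it differed beyond the spread between libraries.

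In the mimic libraries *Pomc* was at 403, 764, 52.9 and 1034 CPM (564 ± 427 CPM, SD, n = 4). In the inhibitor libraries *Pomc* was at 228, 573, 580 and 585 CPM (491 ± 176 CPM, SD, n = 4). Mimic replicate 3 was the lowest and mimic replicate 4 the highest of the 8, so that the mimic libraries lay on both sides of the inhibitor libraries. The mimic range was 19.6-fold. In mimic replicate 3 the value rested on 124 counts, with an exact 95% Poisson interval of 44.0 to 63.1 CPM, which is below the interval of each of the other 7 libraries. The log2 difference between mimic and inhibitor was 0.19, with a standard error of 0.80 and a 95% confidence interval from -1.73 to 2.10 (edgeR adjusted p = 0.969). It was -0.28 without mimic replicate 4, -0.05 without inhibitor replicate 1 and 0.57 without mimic replicate 3. The order of the means was mimic above inhibitor in CPM and the reverse in log2 CPM (8.50 and 8.84), and in neither was it a difference beyond the spread.

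**Figure D1:**
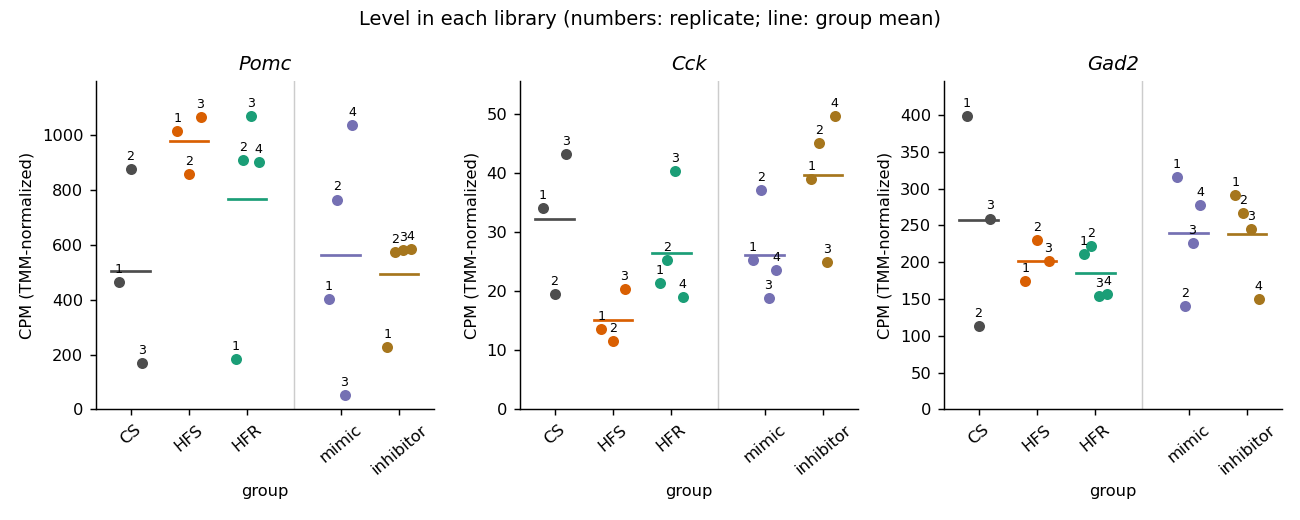
Level of *Pomc*, *Cck* and *Gad2* in CPM in each of the 18 libraries by group, with replicate numbers beside the points and a line at the group mean. *Pomc* reaches from 52.9 to 1034 CPM within the mimic group alone.

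In CS, *Cck* was at 34.1, 19.6 and 43.1 CPM (32.3 ± 11.9 CPM, SD, n = 3). In HFS, *Cck* was at 13.6, 11.5 and 20.3 CPM (15.2 ± 4.61 CPM, SD, n = 3). In HFR, *Cck* was at 21.3, 25.2, 40.3 and 19.0 CPM (26.5 ± 9.55 CPM, SD, n = 4). HFS held the low values, and the overlap with CS came from CS replicate 2, whose 19.6 CPM was under the 20.3 CPM of HFS replicate 3. HFR overlapped with HFS through HFR replicate 4 and 3 of its 4 values lay within the CS range.

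*Cck* was lower in HFS than in CS by a log2 difference of -1.09, with a standard error of 0.34 and a 95% confidence interval from -1.81 to -0.36. All 3 HFS libraries lay below the CS mean. The unadjusted p was 0.00601, place 56 among the 11892 genes, and the adjusted p was 0.994 in the edgeR quasi-likelihood test, so *Cck* was not called. Without CS replicate 2 and HFS replicate 2 the groups no longer overlapped, at 34.1 and 43.1 CPM in CS against 13.6 and 20.3 CPM in HFS. The log2 difference was then -1.18 (standard error 0.35, edgeR adjusted p = 0.514). In the same fit *Cck* differed by 0.64 between HFR and HFS and by -0.54 between HFR and CS. With all libraries, between HFR and HFS, *Cck* differed by 0.80 on the log2 scale (95% confidence interval 0.12 to 1.48, edgeR unadjusted p = 0.0251 and adjusted p = 0.989). Between HFR and CS the log2 difference was -0.29 (95% confidence interval -0.94 to 0.37, edgeR adjusted p = 0.995). The order of the *Cck* means was CS, HFR and HFS. The neighbours CS and HFR did not differ beyond the spread, and the difference between HFR and HFS did not pass the adjustment over all genes.

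In the mimic libraries *Cck* was at 25.3, 37.0, 18.8 and 23.6 CPM (26.2 ± 7.76 CPM, SD, n = 4). In the inhibitor libraries it was at 38.9, 45.0, 25.0 and 49.6 CPM (39.6 ± 10.7 CPM, SD, n = 4). Inhibitor replicate 3 lay within the mimic range and the other 3 inhibitor libraries above it, so the groups overlapped. The log2 difference, mimic against inhibitor, was -0.61, with a standard error of 0.25 and a 95% confidence interval from -1.16 to -0.07. The unadjusted p was 0.0295 and the adjusted p 0.445 in edgeR, so *Cck* was not called.

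In CS, *Gad2* was at 398, 114 and 259 CPM (257 ± 142 CPM, SD, n = 3). In HFS, *Gad2* was at 174, 230 and 202 CPM (202 ± 27.8 CPM, SD, n = 3). In HFR, *Gad2* was at 212, 221, 153 and 156 CPM (186 ± 35.8 CPM, SD, n = 4). CS replicate 1 held the highest and CS replicate 2 the lowest of the 10 values, so CS enclosed both other groups. The highest library exceeded the lowest 3.50-fold in CS, 1.32-fold in HFS and 1.44-fold in HFR.

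The log2 difference in *Gad2* between HFS and CS was -0.35 (standard error 0.37, 95% confidence interval -1.18 to 0.48, edgeR adjusted p = 0.994). Without CS replicate 1 it turned to 0.11. Without CS replicate 2 and HFS replicate 2 it was -0.80 (standard error 0.24), with 259 and 398 CPM in CS above 174 and 202 CPM in HFS, and it was still not called (edgeR unadjusted p = 0.00580 and adjusted p = 0.514). Between HFR and CS the log2 difference was -0.47 (95% confidence interval -1.24 to 0.30, edgeR adjusted p = 0.995). It was 0.0070 without CS replicate 1 and -0.81 without the 2 unmatched libraries (edgeR adjusted p = 0.543). Between HFR and HFS the log2 difference was -0.12 (95% confidence interval -0.90 to 0.65, edgeR adjusted p = 0.989), and -0.01 without HFS replicate 2 and CS replicate 2. The order of the *Gad2* means was CS, HFS and HFR, and no neighbours in it differed beyond the spread.

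In the mimic libraries *Gad2* was at 316, 140, 226 and 278 CPM (240 ± 76.0 CPM, SD, n = 4). In the inhibitor libraries *Gad2* was at 291, 267, 245 and 150 CPM (238 ± 61.8 CPM, SD, n = 4). The groups covered nearly the same range, with 1 low library in each, mimic replicate 2 and inhibitor replicate 4. The log2 difference was 0.02 (95% confidence interval -0.60 to 0.65, edgeR adjusted p = 0.992). It was -0.15 without mimic replicate 1, -0.05 without mimic replicate 4 and -0.15 without inhibitor replicate 4, and positive without each of the others.

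**Figure D2:**
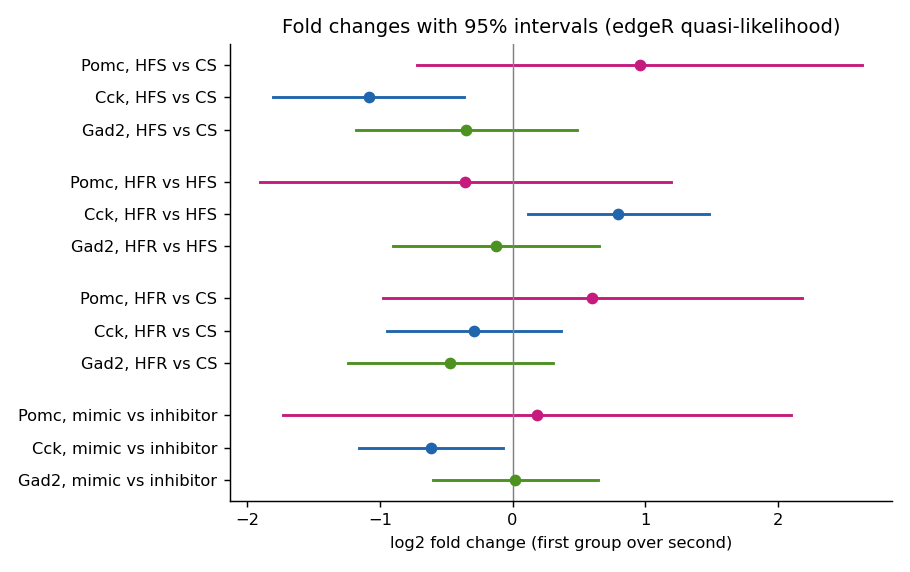
Log2 fold changes of *Pomc*, *Cck* and *Gad2* in the 4 comparisons, with 95% confidence intervals from the edgeR fit. The intervals of *Cck* leave out 0 in 3 comparisons, and all intervals of *Pomc* and *Gad2* include it.

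Over the 4 comparisons, none of the 3 genes was called by the edgeR quasi-likelihood test after Benjamini-Hochberg adjustment, and their groups overlapped in all 12 cases. A call needed an adjusted p under 0.1 for diet and running and under 0.05 for miR-211. DESeq2 called none of the 3 either. Between HFS and CS, 1 of the 3 genes, *Cck*, had an unadjusted p under 0.05, where 4.47% of all genes tested did. In that comparison 0.00841% of the genes were called (1 gene, and 4 with DESeq2) and 9.72% had groups that did not overlap. Between HFR and HFS, *Cck* was again the 1 gene of the 3 with an unadjusted p under 0.05, against 4.24% of all genes (504 genes). There 0% of the genes were called in edgeR and 1 gene was called in DESeq2, and 6.84% had groups that did not overlap. Between HFR and CS, none of the 3 had an unadjusted p under 0.05, against 4.28% of all genes, while 0.0168% were called (2 genes, and 18 with DESeq2) and 5.47% did not overlap. Between mimic and inhibitor, *Cck* had an unadjusted p under 0.05, against 9.9% of all genes, while 0.447% were called (43 genes, and 176 with DESeq2) and 5.92% did not overlap. With each library left out in turn, from 0 to 111 genes were called there in edgeR.

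In the fit without CS replicate 2 and HFS replicate 2, 12003 genes were tested and none of the 3 was called in edgeR. Between HFS and CS, *Cck* and *Gad2* had an unadjusted p under 0.05, against 8.14% of all genes, and 0.00833% were called (1 gene). The groups of all 3 genes did not overlap there, against 41.3% of all genes. For HFR against HFS, none of the 3 had an unadjusted p under 0.05, against 4.11% of all genes (493 genes), and 0% were called. Between HFR and CS, *Gad2* had one, against 5.9% of all genes, and 0.0167% were called (2 genes).

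Named after its values were seen, the 1 gene called between HFS and CS was *Nr4a1*, with a log2 difference of 1.32 (standard error 0.20, edgeR adjusted p = 0.0960). *Nr4a1* was also called between HFR and CS, at 1.53 (standard error 0.19, edgeR adjusted p = 0.00968). The other gene called there, ENSRNOG00000009779, had a log2 difference of -1.69 (standard error 0.23, edgeR adjusted p = 0.0144). The call between HFS and CS ended at an adjusted p under 0.05 and with only the groups compared (0 genes called in each), and also without any 1 of CS replicates 1 and 3, HFS replicates 1 and 3 and HFR replicates 1, 2 and 3 (0 genes called in each). Without CS replicate 1, 0 genes were called between HFR and CS. With both unmatched libraries left out, *Nr4a1* was not called between HFS and CS (log2 difference 1.29, edgeR adjusted p = 0.374) but was called between HFR and CS (1.58, edgeR adjusted p = 0.0786), and ENSRNOG00000009779 was not called (-1.44, edgeR adjusted p = 0.207). The genes called there, also named after their values were seen, were *Capg* between HFS and CS (2.05, edgeR adjusted p = 0.0355) and *Ndufs7* between HFR and CS (0.93, edgeR adjusted p = 0.0786).

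Group means accounted for 24.4% of the variation of *Pomc* in log2 CPM over the 10 diet and running libraries, for 51.5% of that of *Cck* and for 7.71% of that of *Gad2*. The median over all 11892 genes was 18.4%. In the miR-211 experiment the shares were 1.88% for *Pomc*, 39.9% for *Cck* and 0.0060% for *Gad2*, with a median of 11.6% over all 9625 genes. Over the 8 diet and running libraries that matched a column, chosen once the values had been seen, the shares were 40.8% for *Pomc*, 61.7% for *Cck* and 67.1% for *Gad2*, with a median of 26.9% over all genes. The share of *Gad2* thus depended on whether CS replicate 2 and HFS replicate 2 were included.

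The spread between libraries of a group was measured as the SD of log2 CPM, pooled over the groups of an experiment. For *Pomc* it was 1.01 in the diet and running experiment, with a 95% confidence interval from 0.67 to 2.06, at the 96.8th percentile of all genes tested. Of the 213 genes at least as abundant as *Pomc* (itself included), 8 were at least as variable. In the miR-211 experiment the spread of *Pomc* was 1.44 (95% confidence interval 0.93 to 3.17), at the 99.5th percentile. Of 420 genes at least as abundant, 2 were at least as variable there, *Pomc* among them. Without mimic replicate 3 the spread of *Pomc* was 0.68.

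*Gad2* had a spread of 0.53 in the diet and running experiment (79.0th percentile) and of 0.47 in the miR-211 experiment (82.2nd percentile). Without CS replicate 2 the first of these was 0.29. *Cck* had spreads of 0.49 (74.8th percentile) and 0.41 (76.3rd percentile). The median spread over all genes was 0.31 and 0.26 in the 2 experiments. Over the 8 matched diet and running libraries the spread was 1.03 for *Pomc* (96.5th percentile), 0.42 for *Cck* (66.3rd percentile) and 0.30 for *Gad2* (49.5th percentile), with a median of 0.31 over all genes. The biological coefficient of variation exceeded the trend at the gene's abundance 3.35-fold for *Pomc*, 1.88-fold for *Gad2* and 1.25-fold for *Cck* in the diet and running experiment. The ratios were 4.27, 1.56 and 1.18 in the miR-211 experiment.

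**Figure D3:**
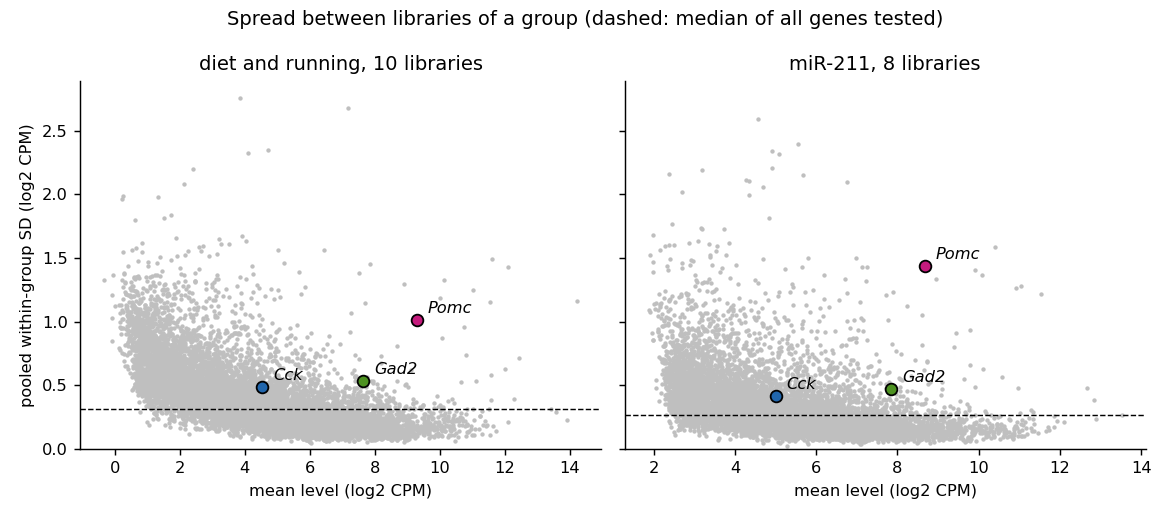
Pooled SD of log2 CPM within groups against mean log2 CPM for all genes tested in each experiment, with *Pomc*, *Cck* and *Gad2* marked. *Pomc* lies above nearly all genes of its abundance, at an SD of 1.01 and 1.44.

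The libraries with low *Pomc* were compared with the other arcuate markers. Mimic replicate 3, the lowest of the 8 libraries in *Pomc*, was also the lowest in *Ghrh* (12.4 CPM, 29 counts) and in *Nkx2-1*, a transcription factor gene of the ventral hypothalamus (14.5 CPM, 34 counts). The next lowest of the 8 was at 23.4 CPM (36 counts) for *Ghrh* and 19.8 CPM (41 counts) for *Nkx2-1*. *Tbx3*, a transcription factor gene of the ARC, had 3 counts in mimic replicate 3 and 3 in inhibitor replicate 1, too few to order these libraries, and 12 or more in the other 6. Mimic replicate 3 was the highest of the 8 in *Sim1*, a transcription factor gene of the paraventricular nucleus (26.9 CPM), in *Trh* (222 CPM), and in *Slc32a1*, which encodes the vesicular GABA transporter (764 CPM).

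Inhibitor replicate 1, the lowest inhibitor library in *Pomc*, had the lowest *Ghrh* (23.4 CPM) and *Tbx3* (3 counts) of the inhibitor libraries, but not the lowest *Nkx2-1*. HFR replicate 1, the lowest HFR library in *Pomc*, had the lowest *Ghrh* (34.9 CPM), *Tbx3* (1.2 CPM, 6 counts) and *Nkx2-1* (32.7 CPM) of the HFR libraries, although the next *Nkx2-1* value was 33.5 CPM. In CS the order differed, since *Pomc* was lowest in replicate 3 while *Ghrh* (29.4 CPM), *Tbx3* (1.1 CPM, 6 counts) and *Nkx2-1* (31.4 CPM, against 32.0 CPM in replicate 3) were lowest in replicate 1. The labels do not give the position of a punch within the hypothalamus, and its part in these differences was not tested.

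CS replicate 2 was the CS library with the highest *Pomc* and *Ghrh* (90.5 CPM). It had the lowest *Gad2*, *Slc32a1* and *Gabbr2* of the 10 diet and running libraries. Its summed level of the 24 pan-neuronal genes was 4528 CPM, against 6177 and 7296 CPM in CS replicates 1 and 3. Its summed level of the 9 vascular and leptomeningeal markers was 804 CPM, against 272 and 256 CPM.

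**Figure D4:**
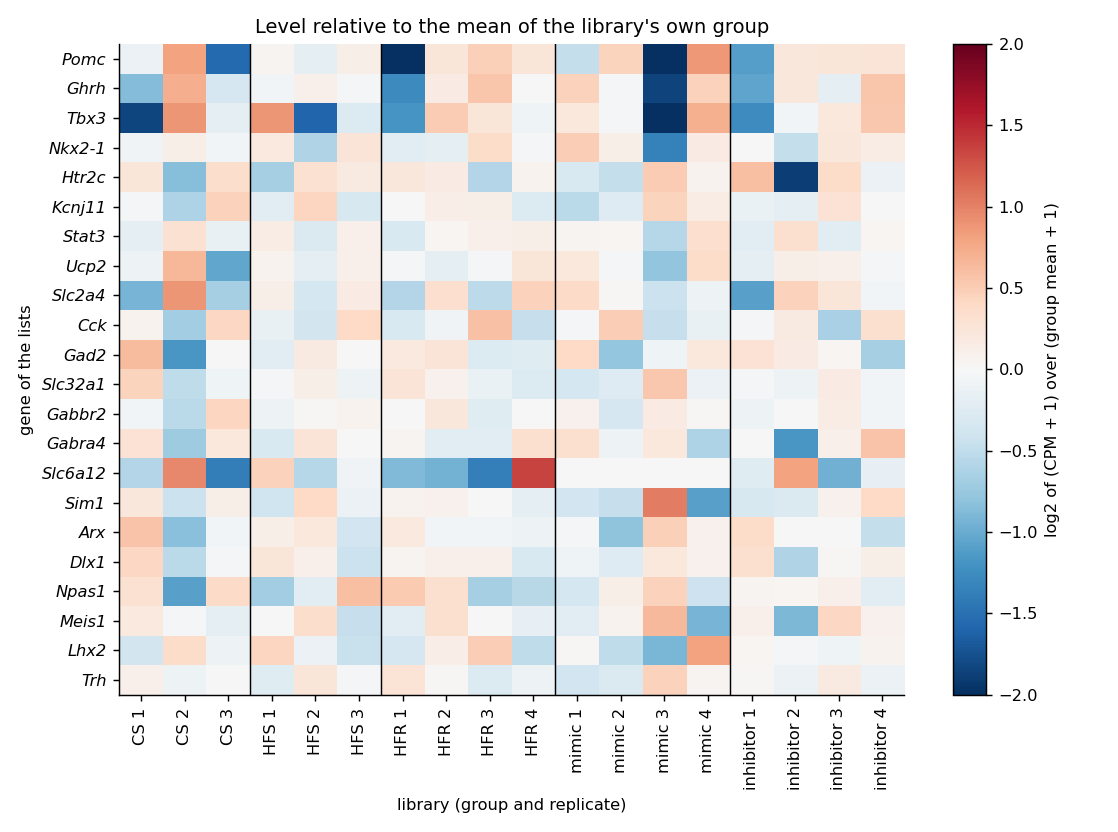
Level of listed arcuate, receptor, *Cck*, GABA, transcription factor and paraventricular genes in each library relative to the mean of its own group, as a log2 ratio with 1 CPM added to both and colours ending at 2 in either direction. In mimic replicate 3 *Pomc*, *Ghrh*, *Tbx3* and *Nkx2-1* lie below their group mean, and *Sim1*, *Slc32a1* and *Trh* above it.

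The genes most like each of the 3 were sought among the genes that had a symbol, 567 in the diet and running experiment and 514 in the miR-211 experiment, by Pearson's r of deviations from the group means. For *Pomc* over the 10 diet and running libraries they were *Vstm4* (r = 0.96), *Tmem117* (0.93), *Npepl1* (0.93), *Ucma* (0.91) and *Lama5* (0.91). For *Pomc* over the 8 miR-211 libraries they included *Abhd14b* (r = 0.99), *Tbx3* (0.95), *Rhpn1* (0.92) and *Ucp2* (0.91). By log2 CPM as measured, without taking off the group means, the r of *Abhd14b* was 0.25. Of the first group, *Lama5* had an r of 0.87 with *Pomc* in the miR-211 experiment, *Npepl1* 0.38, *Vstm4* 0.05 and *Tmem117* -0.22. Of the second, *Abhd14b* had an r of 0.82 in the diet and running experiment, *Ucp2* 0.63, *Rhpn1* 0.62 and *Tbx3* 0.48.

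For *Cck* the genes were *Magee1* (r = 0.85), *Cert1* (0.80), *Adss* (0.78), *Ndn* (0.77) and *Slc6a7* (0.74) over the 10 diet and running libraries. Of all genes tested there, with or without a symbol, 86 were at least as like *Cck* as *Magee1* was, and 388 as *Slc6a7* was. Over the 8 miR-211 libraries they were *Fos* (r = 0.90), *Klf6* (0.89), *Sertad1* (0.85), *Fkbp10* (0.80) and *Tnfaip6* (0.80). None of the 5 was the same in both experiments, and the same held for *Pomc* and *Gad2*. Of the first group, *Cert1* had an r of -0.51 with *Cck* in the miR-211 experiment, *Slc6a7* -0.36, *Magee1* -0.28, *Ndn* -0.16 and *Adss* 0.02. Of the second, *Tnfaip6* had an r of 0.27 in the diet and running experiment, *Fos* 0.09, *Sertad1* -0.06, *Fkbp10* -0.25 and *Klf6* -0.33.

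For *Gad2* the genes were *Gria4* (r = 0.95), *Trappc2* (0.94), *Slc32a1* (0.92), *Clasp2* (0.91) and *C1d* (0.91) over the 10 diet and running libraries. Over the 8 miR-211 libraries they were *Slco2b1* (r = 0.89), *Riok3* (0.86), *Ndufs1* (0.85), *Id2* (0.83) and *Dnajc6* (0.82). As measured, without taking off the group means, the r was 0.63 for *Slco2b1*, 0.50 for *Riok3* and 0.40 for *Id2*. Over the miR-211 libraries the r with *Gad2* was 0.81 for *Trappc2*, 0.75 for *Clasp2*, 0.28 for *Gria4* and 0.01 for *Slc32a1*, whose product loads GABA into vesicles. Over the diet and running libraries it was 0.85 for *Ndufs1*, 0.51 for *Dnajc6*, 0.13 for *Id2*, -0.03 for *Riok3* and -0.35 for *Slco2b1*. These r values are descriptions over libraries that differ in depth and in the levels of tissue markers. The genes were chosen for being the highest among those with a symbol. Over the 8 matched diet and running libraries, 3 of the 5 genes of *Pomc* (*Vstm4*, *Tmem117* and *Npepl1*), 1 of *Cck* (*Magee1*) and 2 of *Gad2* (*Gria4* and *Slc32a1*) were again among the 5 most like it. The r of *Ndn* with *Cck* was then 0.48 and that of *Clasp2* with *Gad2* 0.58.

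Correlations between the 3 genes were computed over libraries as 6 relations, 3 pairs in each experiment, with two-sided permutation tests of log2 CPM (100000 resamples for 10 libraries, all pairings for 8). *Pomc* and *Gad2* had a Pearson's r of -0.46 over the 10 diet and running libraries (permutation p = 0.217, Benjamini-Hochberg adjusted p = 0.486) and a Spearman's rho of -0.61 (permutation p = 0.0668, adjusted p = 0.401). Without CS replicate 3 and HFR replicate 1, the libraries farthest from the median of *Pomc*, r was -0.74 (permutation p = 0.127). *Pomc* and *Cck* had an r of -0.42 (permutation p = 0.220, adjusted p = 0.486) and a rho of -0.18 (permutation p = 0.631, adjusted p = 0.793), and r was -0.29 without the same libraries. *Cck* and *Gad2* had an r of 0.30 (permutation p = 0.405, adjusted p = 0.486) and a rho of 0.30 (permutation p = 0.408, adjusted p = 0.793), and r was 0.47 without CS replicate 3 and HFR replicate 3. Without CS replicate 2 and HFS replicate 2, r was -0.49 for *Pomc* and *Gad2*, -0.38 for *Pomc* and *Cck* and 0.42 for *Cck* and *Gad2*. None of the 3 relations passed the adjustment. These values include differences between groups, and with the group means taken off r was -0.13 for *Pomc* and *Cck* (permutation p = 0.721), -0.47 for *Pomc* and *Gad2* (permutation p = 0.156) and 0.37 for *Cck* and *Gad2* (permutation p = 0.299).

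Over the 8 miR-211 libraries, *Pomc* and *Cck* had an r of 0.42 (exact permutation p = 0.325, adjusted p = 0.486) and a rho of 0.12 (exact permutation p = 0.793, adjusted p = 0.793). Without mimic replicate 3 and inhibitor replicate 1, r turned to -0.12, so the positive r rested on those libraries. *Pomc* and *Gad2* had an r of -0.16 (exact permutation p = 0.816, adjusted p = 0.816) and a rho of -0.33 (exact permutation p = 0.428, adjusted p = 0.793), and r was -0.24 without the same libraries. *Cck* and *Gad2* had an r of -0.41 (exact permutation p = 0.317, adjusted p = 0.486) and a rho of -0.12 (exact permutation p = 0.793, adjusted p = 0.793), and r was -0.29 without mimic replicate 3 and inhibitor replicate 4. With the group means taken off, r was 0.44 for *Pomc* and *Cck* (exact permutation p = 0.290), -0.17 for *Pomc* and *Gad2* (exact permutation p = 0.791) and -0.53 for *Cck* and *Gad2* (exact permutation p = 0.165).

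The other genes of the 3 pathways were taken from fixed lists, whose identifiers came almost all from the diet and running table. Their directions there, and their shares at an unadjusted p under 0.05 in edgeR, are therefore not independent evidence. Of 15 genes of the melanocortin and arcuate peptide system, *Pomc*, *Ghrh* and *Trh* had an identifier, and none was called in any comparison in edgeR. Between HFS and CS, 2 were higher and 1 lower in HFS, with a median log2 difference of 0.56 where the median of all genes was 0.0027. *Ghrh* differed by 0.56 (edgeR unadjusted p = 0.279) and *Trh* by -0.32 (edgeR unadjusted p = 0.0746). *Ghrh* was at 29.4, 90.5 and 42.9 CPM in CS and at 77.2, 86.2 and 77.8 CPM in HFS, so that, as with *Pomc*, the groups overlapped through CS replicate 2. The medians of the list were 0.09 between HFR and HFS, 0.60 between HFR and CS and 0.19 between mimic and inhibitor, where the medians of all genes were -0.0097, -0.0093 and 0.0086. The list includes *Pomc*, and the 0.60 and the 0.19 were the log2 differences of *Pomc* itself. Between HFR and CS *Ghrh* differed by 0.65 and *Trh* by -0.17, and between mimic and inhibitor by -0.12 and 0.31. With both unmatched libraries left out they were 1.11 between HFS and CS, 0.14 between HFR and HFS and 1.25 between HFR and CS, where the medians of all genes were -0.0042, 0.0050 and 0.0069. Of the 3 genes of the cholecystokinin system, *Cck* alone had an identifier.

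Of 9 GABA system genes, 5 had an identifier and were tested in the diet and running experiment, and 4 of them in the miR-211 experiment. Between HFS and CS, 4 were lower and 1 higher in HFS, with a median of -0.30, and none was called or had an unadjusted p under 0.05 in edgeR. *Slc32a1* was at 458 ± 154 CPM (SD, n = 3) in CS and 372 ± 27.2 CPM (SD, n = 3) in HFS, a log2 difference of -0.30 (edgeR unadjusted p = 0.165). *Gabbr2*, which encodes a GABA-B receptor subunit, differed by -0.42 (edgeR unadjusted p = 0.0555). Between mimic and inhibitor *Gabbr2* differed by 0.28 (edgeR unadjusted p = 0.0405, adjusted p = 0.475), and the median of the 4 genes was 0.09. The medians of the 5 were -0.12 between HFR and HFS, the value of *Gad2* itself, and -0.09 between HFR and CS. Over the 8 matched libraries the median of the GABA genes was -0.61 between HFS and CS, with 3 lower and 1 higher at an unadjusted p under 0.05 in edgeR (8.14% of all genes in that fit) and none called. It was then -0.01 between HFR and HFS and -0.28 between HFR and CS.

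Of 9 genes for receptors and nutrient sensing of arcuate neurons, 6 had an identifier, and none was called in edgeR. *Ucp2*, which encodes a mitochondrial uncoupling protein, differed between HFS and CS by 0.86 on the log2 scale (edgeR unadjusted p = 0.0248, adjusted p = 0.994). It was at 159, 269.5 and 81.8 CPM in CS and at 326, 269.8 and 334 CPM in HFS, so that CS replicate 2 and HFS replicate 2 had nearly the same level. *Stat3*, a signalling gene downstream of the leptin receptor, was lower with mimic than with inhibitor by a log2 difference of -0.51 (edgeR unadjusted p = 0.0198, adjusted p = 0.380). The median of the list was 0.33 between HFS and CS, -0.05 between HFR and HFS, 0.16 between HFR and CS and 0.05 between mimic and inhibitor. With both unmatched libraries left out it was 0.66 between HFS and CS (4 higher and 1 lower at an unadjusted p under 0.05 in edgeR, against 8.14% of all genes, and none called), -0.0061 between HFR and HFS and 0.53 between HFR and CS.

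All 8 forebrain and hypothalamic transcription factor genes had an identifier, 7 of them tested in the miR-211 experiment, and none was called in edgeR. All 7 had a fitted log2 difference above 0 for mimic against inhibitor, with a median of 0.45, although the mean of *Npas1* was nearly the same in both groups (5.595 CPM with mimic and 5.597 CPM with inhibitor), and *Dlx1*, a gene of forebrain GABA neurons, differed by 0.62 (edgeR unadjusted p = 0.00664, adjusted p = 0.241). Without mimic replicate 3, left out after the values were known, 5 of the 7 were higher and the median was 0.26. The medians were -0.23 between HFS and CS, -0.08 between HFR and HFS and -0.25 between HFR and CS, and with both unmatched libraries left out they were -0.55, -0.08 and -0.27.

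*Cck* was lower in HFS together with most pan-neuronal genes. All 24 of these had their identifier from the diet and running table. Their directions and shares at an unadjusted p under 0.05 between CS, HFS and HFR are therefore tied to how they were chosen. They are not independent evidence. Of 24 pan-neuronal genes, 23 were lower in HFS than in CS (4 of them with an unadjusted p under 0.05 in edgeR, against 4.47% of all genes), with a median of -0.25, and none was called. Their summed level was 6177, 4528 and 7296 CPM in CS, 4657, 5352 and 5249.9 CPM in HFS and 6659, 6070.0, 5967 and 5919.5 CPM in HFR. *Map1b* was the most abundant in all 10 libraries. HFS lay below all but CS replicate 2, with no overlap between HFS and HFR. Between HFR and HFS 22 of the 24 were higher in HFR, with a median of 0.26 and none called. There 3 of the 24 had an unadjusted p under 0.05 in edgeR, against 4.24% of all genes. Groups did not overlap for 5 of the 24, against 6.84% of all genes. Between HFR and CS 9 were higher and 15 lower, with a median of -0.03. Between mimic and inhibitor, 21 of 23 had a fitted log2 difference above 0, with a median of 0.20, among them *Camk2a* at 0.01, whose mean was lower with mimic (5.38 against 5.55 CPM), while *Cck* was lower with mimic.

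Glial markers had the opposite sign, and their identifiers, too, came from the same table for all markers but *Gpr37l1* and *Cd68*. Their directions and shares between CS, HFS and HFR are therefore not independent evidence either. All 3 oligodendrocyte markers with an identifier (of 4) were higher in HFS than in CS, each with an unadjusted p under 0.05 in edgeR (4.47% of all genes) and none called, with a median of 0.73. Their summed level, mostly *Mbp*, was 8370, 13232 and 10224 CPM in CS, 19965, 17787 and 13085 CPM in HFS and 15545, 11069.8, 13235 and 15496 CPM in HFR. All 5 microglia markers were higher in HFS (2 with an unadjusted p under 0.05 in edgeR, against 4.47% of all genes, and none called), with a median of 0.64. Their summed level was 296, 431 and 278 CPM in CS, 529, 404 and 453 CPM in HFS and 299.7, 296, 325 and 406 CPM in HFR, with *C1qb* or *C1qa* the most abundant. CS and HFS overlapped in the sums of both lists through CS replicate 2, at HFS replicate 2 for microglia and HFS replicate 3 for oligodendrocytes.

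All 3 astrocyte markers with an identifier (of 5) were higher in HFS than in CS, with a median of 0.51. Their summed level, mostly *Gfap* or *Gpr37l1*, was 1336, 2226 and 1258 CPM in CS, 3579, 1878 and 2989.7 CPM in HFS and 1066, 1826, 2438 and 2507 CPM in HFR. All 4 tanycyte or ependyma markers (of 5) were higher in HFS, with a median of 0.36 and sums of 52.6, 88.2 and 46.6 CPM in CS and 109, 65.1 and 63.4 CPM in HFS. In HFR the tanycyte or ependyma sums were 44.5, 55.8, 76.3 and 45.3 CPM, and *Lhx2* was the most abundant in all 10 libraries. Of 9 vascular and leptomeningeal markers, 8 were higher in HFS, with a median of 0.52. Their sums were 272, 804 and 256 CPM in CS, 673, 531 and 612 CPM in HFS and 229.5, 362, 348 and 592 CPM in HFR. *Twist1* was at 0 in CS replicate 3 and *Lmod1* in inhibitor replicate 3, and no astrocyte, microglia, oligodendrocyte or tanycyte marker with an identifier was at 0 in any library.

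Without CS replicate 2 and HFS replicate 2, all 24 pan-neuronal genes were lower in HFS, with a median of -0.49, while all 3 oligodendrocyte markers were higher with a median of 0.97, all 5 microglia markers with a median of 1.00 and all 9 vascular markers with a median of 1.21. All 3 astrocyte markers were then higher with a median of 0.97 and all 4 tanycyte or ependyma markers with a median of 0.81. None of these markers or pan-neuronal genes was called in edgeR, while an unadjusted p under 0.05 was found for 14 of the 24 pan-neuronal genes, 3 of 3 oligodendrocyte, 4 of 5 microglia, 6 of 9 vascular, 2 of 3 astrocyte and 1 of 4 tanycyte or ependyma markers, against 8.14% of all genes in that fit. Nearly all these genes were listed by the study from animals that include the same 8 libraries. Shares above that of all genes are therefore tied to how the genes were chosen and are not independent evidence. The pan-neuronal median was 0.31 between HFR and HFS (23 of 24 higher in HFR) and -0.21 between HFR and CS (3 higher and 21 lower). *Cck* and *Gad2* differed by -1.18 and -0.80 between HFS and CS in the same libraries. The part of these cell types in the results for *Pomc*, *Cck* and *Gad2* was not tested.

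Between HFR and HFS, 4 of 5 microglia and 1 of 9 vascular markers had an edgeR unadjusted p under 0.05 (4.24% of all genes). None of the oligodendrocyte, astrocyte and tanycyte or ependyma markers did. Here too the markers came almost all from the study's table, so their shares in this comparison are not independent evidence, with or without the unmatched libraries. The markers there had medians of -0.43 (oligodendrocyte), -0.53 (microglia), -0.55 (astrocyte), -0.40 (tanycyte or ependyma) and -0.70 (vascular and leptomeningeal), with none of the markers called in edgeR. Between HFR and CS the medians were 0.39, -0.07, -0.04, -0.16 and -0.16 in the same order. With both unmatched libraries left out, 4 of these 5 signs between HFR and CS turned, to 0.39 for microglia (5 of 5 higher in HFR), 0.40 for astrocytes (2 of 3), 0.22 for tanycytes or ependyma (4 of 4) and 0.52 for vascular and leptomeningeal markers (9 of 9), and the oligodendrocyte median was 0.60. Between HFR and HFS the medians were then -0.53 (oligodendrocyte), -0.64 (microglia), -0.57 (astrocyte), -0.49 (tanycyte or ependyma) and -0.87 (vascular and leptomeningeal). An unadjusted p under 0.05 in edgeR was then found for 5 of 5 microglia, 2 of 3 oligodendrocyte and 2 of 3 astrocyte markers. The same held for 1 of 4 tanycyte or ependyma and 4 of 9 vascular markers, against 4.11% of all genes in that fit. None of them was called. For mimic against inhibitor the medians, from oligodendrocyte to vascular, were -0.26, -0.52, 0.33, 0.04 and -0.21. The astrocyte and tanycyte medians hide genes of the opposite sign, since *Gfap*, the most abundant astrocyte marker, differed by -0.45 (edgeR unadjusted p = 0.164), against 0.48 for *Gpr37l1* (edgeR unadjusted p = 0.000709 and adjusted p = 0.0898, not called, with groups that did not overlap, as in 5.92% of all genes), and *Nes* by -1.22 (edgeR unadjusted p = 0.141). The astrocyte sums were 1517, 2304, 1672 and 3237 CPM with mimic and 2195, 2953, 2862 and 2931 CPM with inhibitor, and the tanycyte or ependyma sums 56.6, 38.5, 27.3 and 92.0 CPM with mimic and 101, 51.8, 41.8 and 56.3 CPM with inhibitor. Vascular and leptomeningeal sums were 211.2, 203, 248 and 276 CPM with mimic and 274, 348, 222 and 298 CPM with inhibitor. *Cck*, lower with mimic, and the microglia markers moved in the same direction there, with 5 of 5 microglia markers lower (2 with an unadjusted p under 0.05 in edgeR, against 9.9% of all genes). Microglia sums were 302, 399, 458 and 421 CPM with mimic and 380, 789, 461 and 615 CPM with inhibitor, with *C1qa* the most abundant in all 8. All 3 oligodendrocyte markers were lower with mimic too, with sums of 6515, 9347, 11283 and 6000.0 CPM with mimic and 10673, 7785, 9214 and 7363 CPM with inhibitor. The part of either cell type in the *Cck* difference was not tested.

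The arcuate markers had a median log2 difference of 0.39 between HFS and CS (4 of 4 higher in HFS), -0.13 between HFR and HFS, 0.41 between HFR and CS and 0.32 between mimic and inhibitor. The 2 paraventricular markers, *Sim1* and *Trh*, had medians of -0.29, 0.16, -0.13 and 0.60 in the same order. The arcuate markers include *Pomc* itself. Between HFS and CS it differed by 0.96, *Ghrh* by 0.56, *Tbx3* by 0.22 and *Nkx2-1* by 0.09. Identifiers of both marker lists came from the diet and running table. Their directions and p-values between CS, HFS and HFR are therefore not independent evidence. *Sim1* was at 9.53, 9.02, 26.9 and 5.5 CPM with mimic and at 5.19, 5.32, 7.13 and 9.11 CPM with inhibitor. Without mimic replicate 3, left out only once the values had been seen, the paraventricular median between mimic and inhibitor was 0.18 and the arcuate median 0.65. In that fit the medians were -0.02 for the GABA genes, 0.20 for the receptor genes and 0.13 for the pan-neuronal genes. They were -0.70 for microglia, -0.36 for oligodendrocytes, 0.18 for astrocytes, 0.26 for tanycytes or ependyma and -0.30 for vascular and leptomeningeal markers. With both unmatched libraries left out, the arcuate medians were 1.40 between HFS and CS, -0.27 between HFR and HFS and 0.77 between HFR and CS, and the paraventricular medians were -0.60 (both genes at an unadjusted p under 0.05 in edgeR, against 8.14% of all genes), 0.37 and -0.24. None of these markers was called in edgeR with or without them. Of the 6 pituitary markers none had an identifier in the names used, so pituitary tissue was not assessed.

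Each library was left out in turn. The sign of the log2 difference between HFS and CS held in all 10 of these fits for *Pomc* (0.55 to 1.62) and for *Cck* (-1.36 to -0.82). For *Gad2* it ran from -0.70 to 0.11, with the reversal without CS replicate 1. For mimic against inhibitor *Cck* held its sign in all 8 fits (-0.83 to -0.47), while *Pomc* ran from -0.28 to 0.57 and *Gad2* from -0.15 to 0.21.

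**Figure D5:**
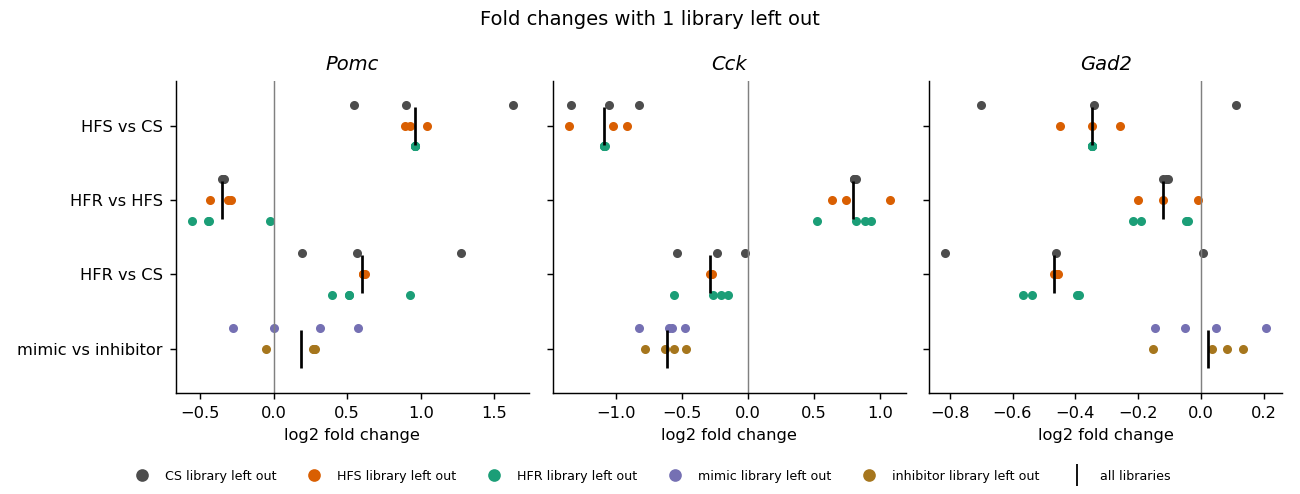
Log2 fold changes of *Pomc*, *Cck* and *Gad2* with each library left out in turn, coloured by the group of the library left out, with the value over all libraries as a black line. The 10 values of *Cck* between HFS and CS lie between -1.36 and -0.82, and those of *Gad2* reach across 0.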

How the data were processed

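Values are whole-number read counts per gene, as deposited by the authors, who aligned reads to Rnor6 with STAR 2.7.9a, removed duplicates with SAMtools and counted with HTSeq 0.13.5. The annotation release is not given in the sources used here. Counts of the miR-211 experiment are corrected for unique molecular identifiers, and whether those of the diet and running experiment were is not stated. In the latter, 22.4% to 26.3% of reads fell outside genes, 17.2% to 20.6% aligned to several places and 1.75% to 2.12% were ambiguous; these were not used. The experiments were fitted separately with edgeR 4.0.16 (R 4.3.3, limma 3.58.1), using filterByExpr, TMM and robust quasi-likelihood tests and Benjamini-Hochberg adjustment over the genes of each comparison, at common biological coefficients of variation of 0.234 and 0.205. Log2 CPM used a prior count of 2. Alternatives were DESeq2 1.42.0, other normalizations, filters, prior counts and thresholds, fits of fewer groups, replicate numbers as a block, and leaving out libraries. Correlations and figures used Python 3.11.15, numpy 2.4.6, scipy 1.17.1, pandas 2.3.3 and matplotlib 3.10.9. The tests were tested on simulated data, and the outcome is not given here.

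By the rule for named genes these are the 3 genes, the 5 genes with a symbol that were most like each in each experiment, and listed pathway and marker genes, except where a gene was not used here. The genes and lists were chosen with earlier results of these data known. Symbols came from the 606 identifiers in the study's tables, and a listed symbol without an identifier is counted and not described. Identifiers of *Gpr37l1* and *Cd68* came from the miR-211 table. List medians without mimic replicate 3, and the spreads, shares, most alike genes and called genes without CS replicate 2 and HFS replicate 2, were chosen after the data had been seen. The comparison of libraries with per-animal columns took a ratio as constant where the interquartile range of its log2 was under 0.01. The labels give the organism as Rattus rattus, while the identifiers are those of Rattus norvegicus.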

Additional observations from a re-analysis of the deposited data

Results flagged for a closer look

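In groups of 4 libraries, the gap between the most distant library and its nearest neighbour was divided by the range of the group, for *Pomc*, *Cck* and *Gad2* in log2 CPM and for counts on genes. In 3 of 12 such groups 1 library stood far from the others, where chance gives about 1 in 20. *Pomc* in HFR replicate 1 (182 CPM) stood below the other HFR libraries with a ratio of 0.904, and of 0.812 in CPM, where it no longer stood far enough apart to be counted. *Pomc* in inhibitor replicate 1 (228 CPM) stood below the other inhibitor libraries with a ratio of 0.978 (0.966 in CPM). The counts on genes in inhibitor replicate 4 (6615927) stood above those of the other inhibitor libraries with a ratio of 0.894.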

How the results depend on the processing

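Of the log2 differences of *Pomc*, *Cck* and *Gad2* under alternative settings, 210 kept their sign, 9 reversed and none passed the threshold. The 210 include settings that changed only the threshold for a call, which could not alter a log2 difference. The cause of the reversals was not tested. With the replicate number as a replicate block, mimic against inhibitor reversed for *Pomc* (-0.11) and *Gad2* (-0.00069), and the genes called were 0 between HFS and CS, 2 between HFR and HFS and 0 between HFR and CS. The deviations of libraries of the same number correlated at r = -0.06, -0.12 and 0.05 between CS and HFS, 0.15, -0.12 and -0.12 between CS and HFR, -0.01, 0.10 and 0.15 between HFS and HFR and 0.08, 0.05, 0.21 and 0.06 between mimic and inhibitor. For different numbers r ran from -0.29 (mimic replicate 3 and inhibitor replicate 2) to 0.22 (CS replicate 2 and HFR replicate 4). All same-number values between mimic and inhibitor were positive, so these values do not settle whether libraries were paired. The labels name no pairing, and libraries were fitted as unpaired. Genes called in edgeR were 1 between HFS and CS, against 4 with DESeq2, 0 at an adjusted p under 0.05 and 0 with only the groups compared. They were 0 between HFR and HFS (504 at an unadjusted p under 0.05), against 1 with DESeq2. They were 2 between HFR and CS, against 18 with DESeq2 and 8 without a filter on low counts. They were 43 between mimic and inhibitor, against 176 with DESeq2, 125 without a filter, 1 at an adjusted p under 0.01 and 79 under 0.1. With each library left out, genes called ran from 0 to 2 between HFS and CS, 0 to 0 between HFR and HFS, 0 to 3 between HFR and CS and 0 to 111 between mimic and inhibitor (0 without mimic replicate 1 or 3, 2 without mimic replicate 2, 13 without mimic replicate 4, 111, 26 and 1 without inhibitor replicates 1, 2 and 4). Log2 differences ran, for *Pomc*, *Cck* and *Gad2*, from 0.55 to 1.62, -1.36 to -0.82 and -0.70 to 0.11 between HFS and CS. They ran from -0.56 to -0.03, 0.52 to 1.07 and -0.22 to -0.01 between HFR and HFS, and from 0.19 to 1.28, -0.56 to -0.02 and -0.81 to 0.0070 between HFR and CS. Between mimic and inhibitor they ran from -0.28 to 0.57, -0.83 to -0.47 and -0.15 to 0.21. The pooled SD of log2 CPM ran from 0.70 to 1.09 for *Pomc*, 0.42 to 0.53 for *Cck* and 0.29 to 0.58 for *Gad2* over the diet and running libraries, and in the miR-211 libraries from 0.68 to 1.57, from 0.33 to 0.45 and from 0.37 to 0.52. The r of *Pomc* and *Cck* over the miR-211 libraries reversed to -0.12 without the 2 libraries farthest from the median of *Pomc*. By log2 CPM as measured, 3, 3 and 3 of the 5 genes most like *Pomc*, *Cck* and *Gad2* were the same in the diet and running experiment, and 4, 3 and 2 in the miR-211 experiment. The diet and running experiment was run 2 times, and the labels do not give the run of a library, so no values within a run could be computed.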
